A study of Homo sapiens with 6 samples.

Results

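The nuclear-encoded subunits of the respiratory chain and ATP synthase were examined in SK-BR-3, an established HER2-overexpressing breast cancer cell line, after GRB2 knockdown. Members were the protein-coding genes of the count table whose symbols belong to the subunit families NDUFA, NDUFB, NDUFC, NDUFS, NDUFV, SDH, UQCR, COX4 to COX8, CYC1 and ATP5. The rule took 86 of the 30327 genes in the table, and they were grouped into 37 genes of complex I, 4 of complex II, 10 of complex III, 15 of complex IV and 20 of complex V. NDUFA4 and its paralog NDUFA4L2 carry a complex I name but were placed with complex IV, where NDUFA4 is now known to sit.

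The 6 poly(A) RNA libraries fall into a control group that received a nontargeting siRNA (si_NC, n = 3) and a group labelled as given siRNA targeting GRB2 (si_GRB2, n = 3). GRB2 is an adaptor protein that links receptor tyrosine kinases such as HER2 to RAS signalling. The sample descriptions and the study's results give knockdown, while titles and genotype fields of the treated libraries, and the study's methods on the groups, name GRB2 overexpression. The study's methods give the sequence of an siRNA targeting GRB2, while its supplement lists RNA samples of several such siRNAs. The labels do not say which of them the sequenced libraries received. All libraries came from the same transfected line, nothing says whether the replicates were separate cultures, and a time after transfection is given for RT-PCR and Western blot but not for the sequenced RNA. If the replicates were not separate cultures, p-values measure only the spread between these libraries.

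The respiratory chain passes electrons from NADH through complex I, or from succinate through complex II, to ubiquinone. Complex III hands them to cytochrome c, and complex IV to oxygen. Complexes I, III and IV pump protons across the inner mitochondrial membrane, and complex V, the ATP synthase, uses the gradient to make ATP. A small set of subunits of complexes I, III, IV and V is transcribed from mitochondrial DNA, whereas complex II and all remaining subunits come from nuclear genes, so the complexes draw on separate genomes. Promoters of the nuclear genes are known for sites of NRF1, of ETS factors such as GABPA, and of YY1.

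GRB2 had 124, 129.5 and 126 CPM (TMM-normalized counts per 1e6 reads) under si_NC, and 27.8, 28.1 and 29.6 CPM under si_GRB2. Its log2 fold change was −2.15 (SE 0.04, adjusted p = 3.87e-15, edgeR quasi-likelihood test), the direction of a knockdown. The libraries held 24810378 to 28532480 reads on genes. ERBB2, GRB7, EPCAM, KRT8, KRT18 and KRT19, markers of this luminal-type line, were at 134 CPM or more in every library. However, EPCAM and the keratins were lower in si_GRB2 (log2 fold changes from −0.55 to −0.20), as was GRB7 (−0.23). ERBB2 was higher (0.24). Each of these markers passed an adjusted p of 0.05 by edgeR. PTPRC, CD3E, PECAM1, COL1A2 and DCN, which define leukocytes, endothelium and fibroblasts, were at 0.321 CPM or less, while CD68 and VWF reached 1.75 CPM and COL1A1 5.31 CPM at most. Of the 8 markers of other cells, 3 had enough reads to test and none of these was called (adjusted p from 0.178 to 0.932). In bulk RNA, fewer cells of a type and less RNA per cell cannot be told apart.

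The stretches of promoter below belong to pairs of subunits that sit side by side in the protein and moved in opposite directions: SDHB and SDHA, the catalytic pair of complex II, and ATP5PF and ATP5PO, parts of the peripheral stalk of complex V. Each stretch has 200 bases, from 170 before to 30 after the RefSeq start (GRCh38.p14), 5′ to 3′ on the strand of the gene. Capitals mark matches, on either strand, to an ETS motif (CCGGAAG), an NRF1 motif (CGCATGCG), a YY1 motif (AAGATGGCG) or the cyclic AMP response element (TGACGTCA). SDHB lies at chr1:17054003-17054202 on the minus strand, SDHA at chr5:218150-218349 on the plus strand, ATP5PF at chr21:25735025-25735224 on the minus strand and ATP5PO at chr21:33915775-33915974 on the minus strand.
SDHB: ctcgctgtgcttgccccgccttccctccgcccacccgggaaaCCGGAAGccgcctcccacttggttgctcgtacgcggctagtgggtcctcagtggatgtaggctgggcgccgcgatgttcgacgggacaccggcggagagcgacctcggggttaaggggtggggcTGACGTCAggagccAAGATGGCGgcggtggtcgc
SDHA: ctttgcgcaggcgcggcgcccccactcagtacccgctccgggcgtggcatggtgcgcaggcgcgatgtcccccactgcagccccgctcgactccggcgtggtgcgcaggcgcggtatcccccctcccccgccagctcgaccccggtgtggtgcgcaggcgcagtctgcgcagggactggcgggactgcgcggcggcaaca
ATP5PF: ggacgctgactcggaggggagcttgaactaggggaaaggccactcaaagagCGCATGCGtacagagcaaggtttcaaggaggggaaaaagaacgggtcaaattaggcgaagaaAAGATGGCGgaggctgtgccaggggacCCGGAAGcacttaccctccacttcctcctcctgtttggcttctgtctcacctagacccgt
ATP5PO: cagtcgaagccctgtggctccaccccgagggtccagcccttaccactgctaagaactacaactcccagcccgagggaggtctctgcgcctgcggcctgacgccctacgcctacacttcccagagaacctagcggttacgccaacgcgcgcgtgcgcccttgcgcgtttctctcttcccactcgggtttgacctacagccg

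SDHB and ATP5PF, both higher in si_GRB2 cells, held matches to 3 of the 4 motifs, and no matches overlapped in these stretches. SDHA and ATP5PO, both lower, held none of these letters in the stretch or in the whole window of 250 bases before to 50 after the start. Only exact letters were searched, so a stretch without capitals may still hold variant forms of these motifs, which were not counted. RefSeq windows were matched for 65 of the 82 members tested. The ETS letters stood in 20 of the 65 (30.8%), against 10.7% of 27305 promoters of RefSeq genes of any kind. The NRF1 letters stood in 10 (15.4%, against 2.19%), the YY1 letters in 7 (10.8%, against 1.85%) and the cyclic AMP response element in 5 (7.69%, against 1.98%). By direction, the ETS letters were found in 4 of the 7 windows of members called higher, 0 of the 6 of members called lower and 16 of the 52 of members not called. The NRF1 letters stood in 2 of the 7 and 2 of the 6, the YY1 letters in 2 and 1, and the cyclic AMP response element in 1 and 1. NDUFS7, ATP5MC2 and NDUFB2, all lower, held at least 1 of the motifs, and ATP5PB and NDUFA5, both higher, held none. A match is a description of letters and not a bound site, and these counts are too small for a reading by direction.

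Most nuclear-encoded subunits stayed close to their control level. Of the 86 members, 82 had enough reads to test, and 17 of these (20.7%) passed an adjusted p under 0.05 by edgeR, 11 higher and 6 lower in si_GRB2. Over all 15801 genes tested the share was 30.6%, with 15.2% higher and 15.5% lower. Among the called members SDHB rose by 13.4%, and ATP5PO, the deepest fall, dropped by 11.5%. The median log2 fold change was −0.0031 over the members and 0.0019 over all genes tested.

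No member changed by more than 1.5-fold in either direction at an adjusted p under 0.01 by edgeR, DESeq2 or limma. Of all genes, 2.52% did so by edgeR, a share so small that few or no members would be expected to pass. The study set this fold limit with a p value under 0.01, and on an unadjusted p by edgeR 0 members and 3.37% of all genes passed. At an unadjusted p under 0.05 with no fold limit, edgeR called 26 members (31.7%), against 39.4% of all genes. The values of the 3 si_NC and 3 si_GRB2 libraries did not overlap for 32 members (39%), 17 higher and 15 lower, against 42.3% of all genes. The split by direction was 11 higher and 6 lower with DESeq2 size factors, 9 higher and 8 lower with upper-quartile factors, and 7 higher and 0 lower with limma on the deposited FPKM, where test, unit and scaling all differ.

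The changes were small. The log2 fold change exceeded 0.2 in either direction for 2 of 82 members (2.44%), the barely expressed NDUFA4L2 among them, and for 36.3% of all genes. Since genes with many reads have smaller standard errors, the 2700 genes whose mean lay between 65.6 and 378 CPM, the middle 80% of members, were used as a closer background. Of these, 20.1% exceeded 0.2, and 50.8% were called, against 20.7% of the members. The si_NC and si_GRB2 libraries did not overlap for 61.3% of them, against 39% of the members. By edgeR, 1631 of the 2700 had an unadjusted p under 0.05. The 1.5-fold limit at an adjusted p under 0.01 was passed by 31 of the 2700. At so low a share, the absence of such members does not set them apart from these genes. The 95% interval of the log2 fold change lay wholly within 0.2 of no change for 72 members (87.8%), for 61.3% of the genes in that CPM range and for 27.3% of all genes. It lay within the 1.5-fold limit for 81 members, the exception being NDUFA4L2. The SD of the log2 fold changes was 0.133 for the members and 0.29 for all genes. These shares were not tested against each other.

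**Figure D1:**
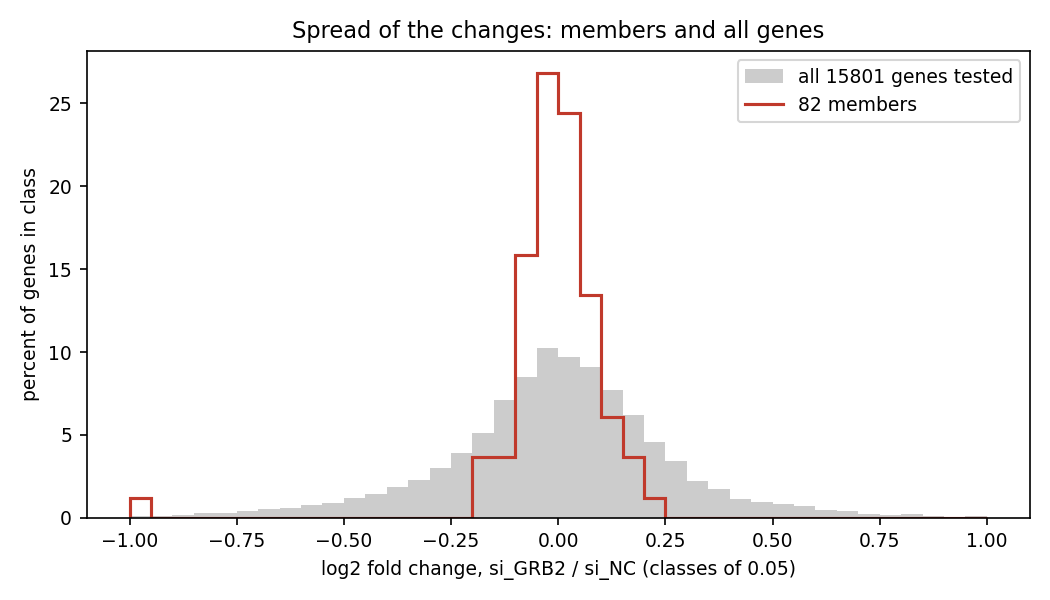
Percent of genes (vertical axis) in classes of 0.05 of the log2 fold change of si_GRB2 against si_NC (horizontal axis), for the 82 members (red line) and all 15801 genes tested (grey). Not drawn are 161 genes beyond 1 in either direction, none of them a member. The members crowd around 0, with 2.44% beyond 0.2 in either direction against 36.3% of all genes.

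**Figure D2:**
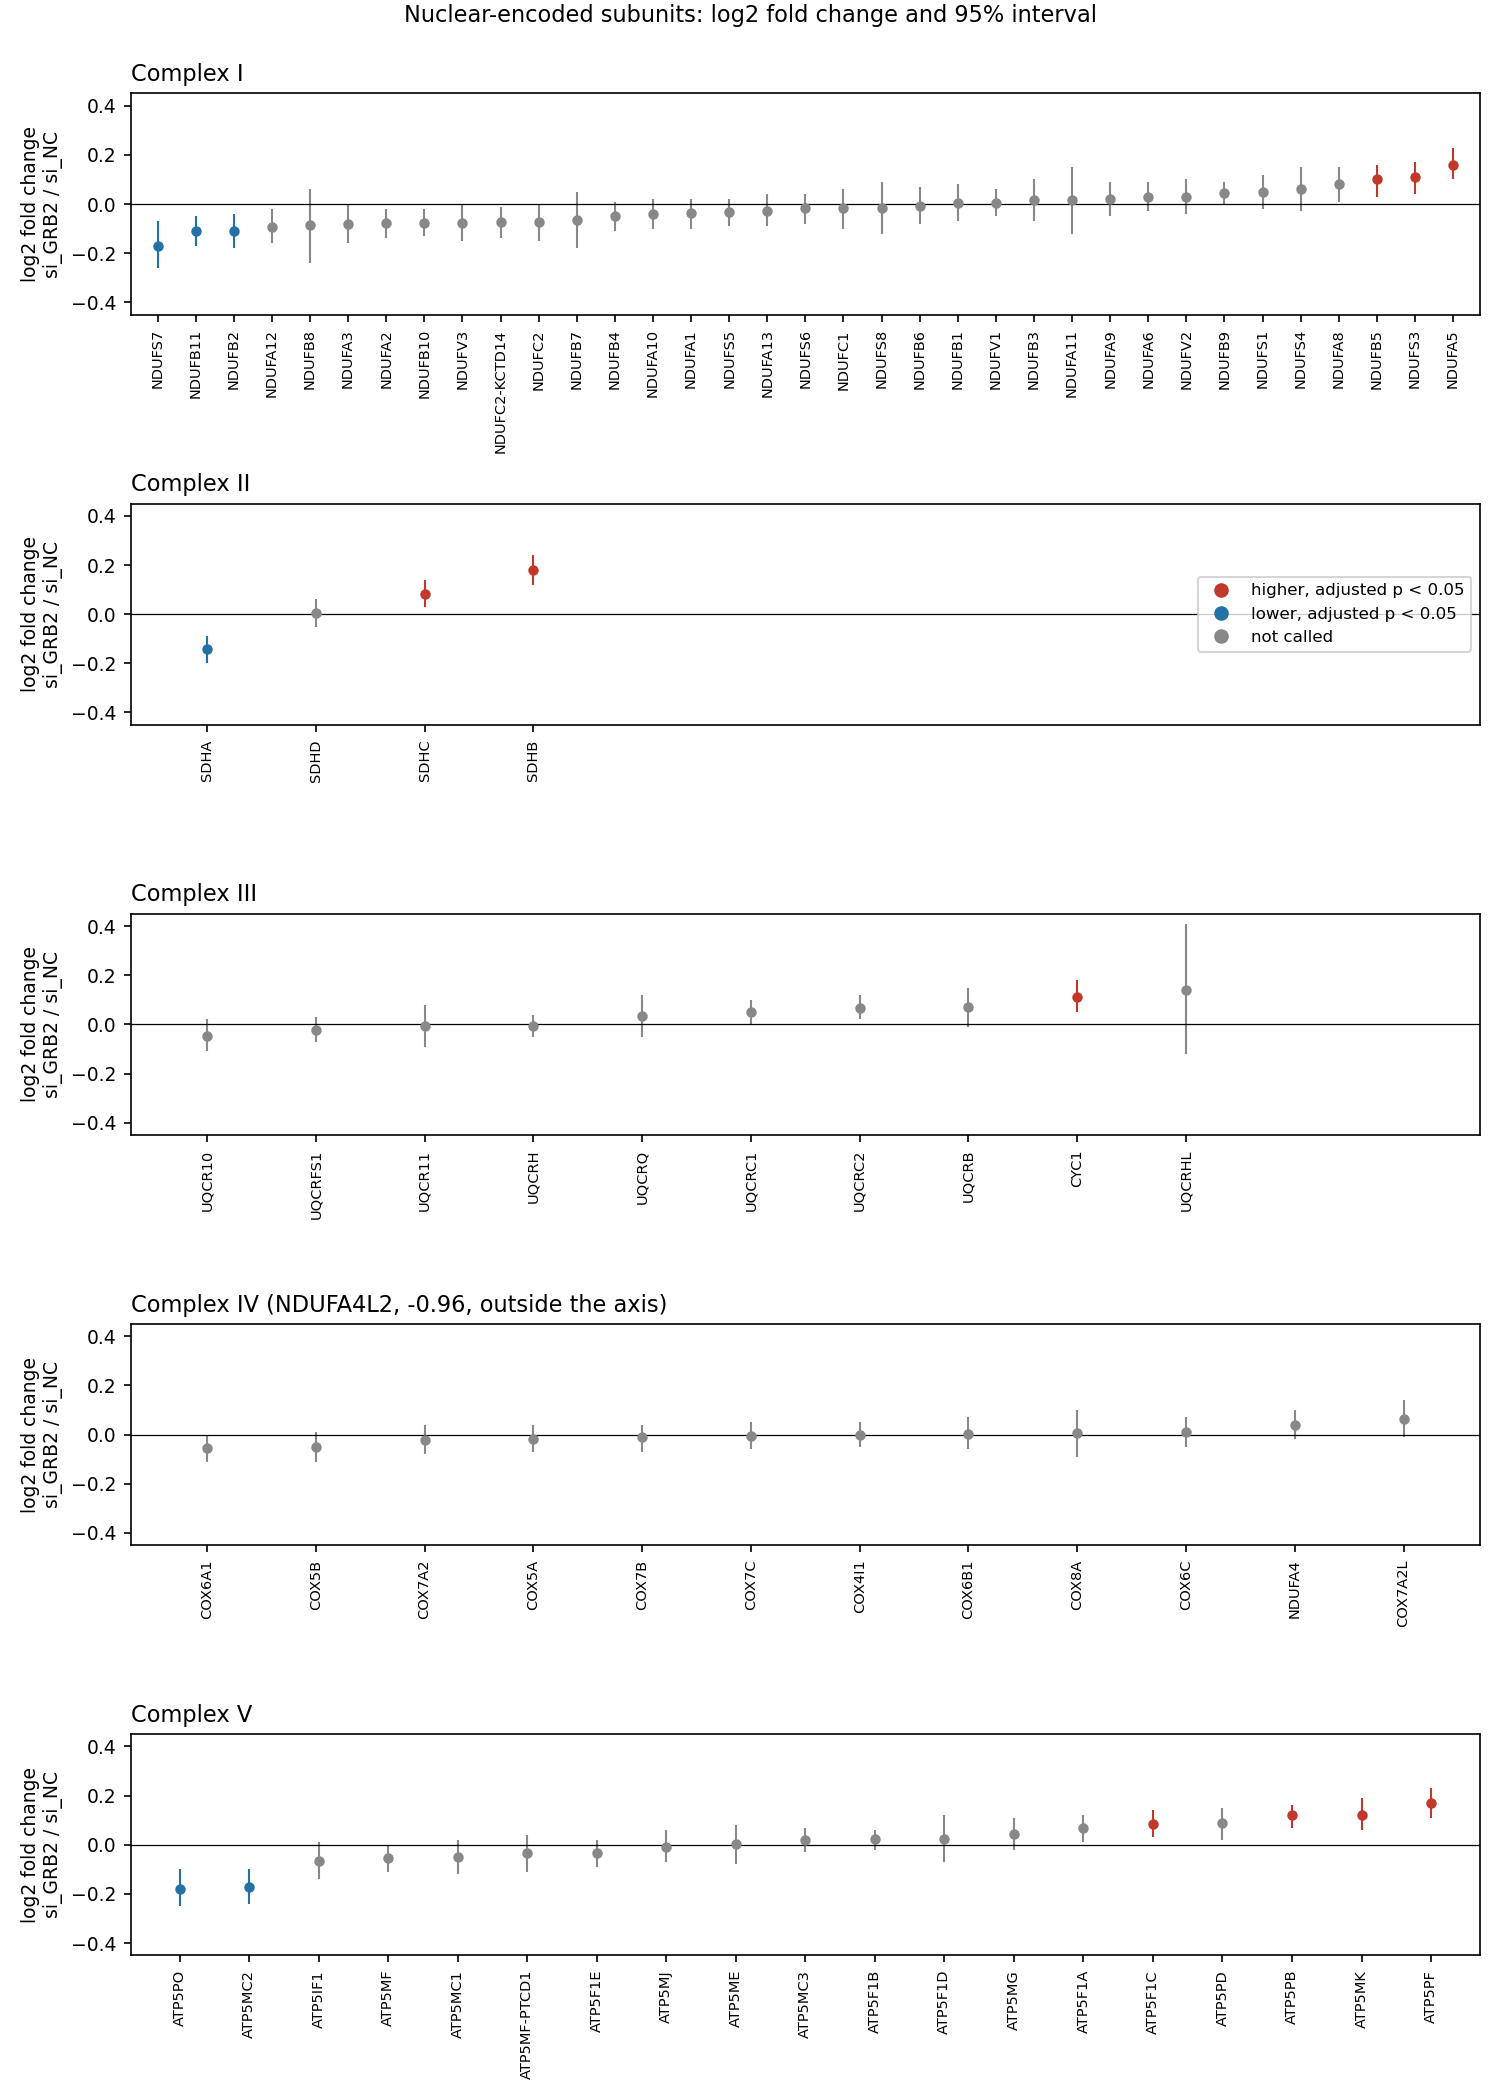
Log2 fold change of 80 members (points) with its 95% interval (bars), by complex, in rising order. Red and blue points passed an adjusted p under 0.05 as higher or lower, grey points did not, and complex IV has no coloured point. NDUFA4L2 (−0.96) lies outside the axis.

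Complex I, the NADH dehydrogenase, had 7 of its 36 tested members called, 4 higher and 3 lower, with a median log2 fold change of −0.018. Its summed level was 6705, 6867 and 6773 CPM in si_NC and 6977, 6748 and 6867 CPM in si_GRB2, and the groups overlapped. This sum leans on NDUFB9, with means of 1909 CPM in si_NC and 1966 CPM in si_GRB2. The median level over the tested members of the complex was 122 CPM.

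NDUFS7, which carries the last iron-sulfur cluster before ubiquinone (chromosome 19, 1383527 to 1395589, plus strand), was lower. It had 77.6, 81.2 and 81.1 CPM in si_NC and 75.1, 74 and 64.5 CPM in si_GRB2. The groups did not overlap, but the third si_GRB2 library stood well below the other two. The log2 fold change was −0.17 (SE 0.049, adjusted p = 0.0169, edgeR), and the call was lost without that library or without si_NC replicate 2. NDUFA5, an accessory subunit of the same ubiquinone-reducing module, had 328, 332 and 309 CPM in si_NC and 353, 353 and 376 CPM in si_GRB2. It was higher in 3 of 3 libraries, with a log2 fold change of 0.16 (SE 0.033, adjusted p = 0.00148, edgeR). NDUFS3, also of this module, was 0.11 higher on the log2 scale (adjusted p = 0.0194, edgeR), a call lost when si_NC replicate 1, si_NC replicate 3, si_GRB2 replicate 1 or si_GRB2 replicate 3 was left out. NDUFS8, the other iron-sulfur protein beside NDUFS7, had a log2 fold change of −0.016 (95% interval −0.12 to 0.09).

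The module that takes electrons from NADH did not pass the test. NDUFV1, which binds NADH and FMN, had a log2 fold change of 0.0038 (95% interval −0.05 to 0.06). NDUFV2 had 0.029 and NDUFS1 0.049, with adjusted p of 0.585 and 0.343 by edgeR. Of the 28 tested accessory subunits, 4 were called. Besides NDUFA5 these were NDUFB5 (0.10, higher), NDUFB11 (−0.11, lower) and NDUFB2 (−0.11, lower), all of the membrane arm. NDUFB11, encoded on the X chromosome, had 126, 125 and 126 CPM in si_NC and 117, 116 and 117 CPM in si_GRB2. Its replicates lay within about 1 CPM of each other, and the difference had an SE of 0.03 and an adjusted p of 0.00932 (edgeR). NDUFB5 lost its call in 5 of the 6 fits that left out a library and kept it without si_GRB2 replicate 2. NDUFB2 lost it without si_NC replicate 1, si_GRB2 replicate 2 or si_GRB2 replicate 3. The other 24 accessory subunits ranged from −0.092 (NDUFA12, adjusted p = 0.0619, edgeR) to 0.08 (NDUFA8, adjusted p = 0.0829, edgeR).

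Complex II, succinate dehydrogenase, is the smallest complex and the only one with no mitochondrially encoded part. Of its 4 genes, 3 were called, but in opposite directions. The share called was 30.6% of all genes and 50.8% of the genes between 65.6 and 378 CPM, and 4 genes are few. SDHA, the flavoprotein that oxidizes succinate (chromosome 5, 218303 to 257082, plus strand), had 285, 285 and 293 CPM in si_NC and 254, 268 and 259 CPM in si_GRB2. SDHB, the iron-sulfur subunit bound to it (chromosome 1, 17018664 to 17054032, minus strand), had 138, 136 and 135 CPM in si_NC and 156, 152 and 156 CPM in si_GRB2. Neither gene's groups overlapped. SDHA fell by 0.14 on the log2 scale (SE 0.029, adjusted p = 0.00115, edgeR) and SDHB rose by 0.18 (SE 0.03, adjusted p = 0.000191, edgeR).

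The ratio of SDHB to SDHA reads within a library, which no scaling between libraries can alter, was 0.482, 0.477 and 0.462 in si_NC and 0.616, 0.565 and 0.601 in si_GRB2, so it was higher in each si_GRB2 library, by 25.3% between the means. SDHC, a membrane anchor, had 223, 218 and 221 CPM in si_NC and 230.4, 231 and 239 CPM in si_GRB2. Its log2 fold change of 0.082 (SE 0.028, adjusted p = 0.036, edgeR) lost its call when any library other than si_GRB2 replicate 1 was left out. SDHD, the other anchor, had a log2 fold change of 0.003 (95% interval −0.05 to 0.06). SDHA needs a caution on read sharing. Pseudogenes of SDHA held 7.53% as many reads as the gene, and an overlapping locus on the same strand (ENSG00000286001.1) held 70.4% as many. On the log2 scale that locus stood at 0.024 (SE 0.03, adjusted p = 0.604, edgeR), and the log2 ratio of the summed CPM of SDHA and the locus was −0.074.

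Complex III, the cytochrome bc1 complex, had 1 of 10 members called. CYC1, cytochrome c1 itself, passes electrons to cytochrome c. It had 263, 276 and 274 CPM in si_NC and 308, 287 and 285 CPM in si_GRB2. The groups did not overlap, the first si_GRB2 library stood highest, and the log2 fold change was 0.11 (SE 0.033, adjusted p = 0.0145, edgeR). The call was lost without si_NC replicate 1 or si_GRB2 replicate 1. UQCRFS1, the Rieske iron-sulfur protein, had a log2 fold change of −0.022 (95% interval −0.07 to 0.03). The core proteins UQCRC1 and UQCRC2 had 0.05 and 0.068, the latter with an adjusted p of 0.0559 by edgeR and among the calls of DESeq2. UQCRHL, a paralog of the hinge protein UQCRH, had the largest log2 fold change of the complex, 0.14 (SE 0.14, adjusted p = 0.481, edgeR). It had 6.63, 6.32 and 5.85 CPM in si_NC and 8.54, 5.61 and 6.68 CPM in si_GRB2. These values overlapped, and UQCRH, with 459 ± 3.02 CPM in si_NC, had a log2 fold change of −0.0066.

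Complex IV, cytochrome c oxidase, held close to its control level. None of its 13 tested members passed the edgeR test, 1 had an unadjusted p under 0.05, and DESeq2 and limma called none either. The 10 accessory subunits COX4I1, COX5A, COX5B, COX6A1, COX6B1, COX6C, COX7A2, COX7B, COX7C and COX8A had log2 fold changes from −0.053 (COX6A1) to 0.011 (COX6C). All 10 of their 95% intervals lay within 0.2 of no change. NDUFA4 had 657, 649 and 652 CPM in si_NC and 680.5, 631 and 699 CPM in si_GRB2, a log2 fold change of 0.038 (95% interval −0.02 to 0.10). It was called higher only in the fit without si_GRB2 replicate 2, the library in which it was lowest. COX7A2L, which joins complexes into supercomplexes, had 0.064 (adjusted p = 0.217, edgeR).

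NDUFA4L2, the member with the unadjusted p under 0.05, was barely expressed. It had 0.392, 0.392 and 0.499 CPM in si_NC and 0.238, 0.146 and 0.277 CPM in si_GRB2. The groups did not overlap, yet the log2 fold change of −0.96 (SE 0.42, 95% interval −1.78 to −0.14) had an adjusted p of 0.098 (edgeR). NDUFA4L2 had 52 reads in all. It overlaps SHMT2, an opposite-strand gene with 59131% as many reads, and whether counting used strand is not given. The COX families hold tissue isoforms beside the ubiquitous ones, and the isoforms in the table were nearly silent. COX6B2, the testis form of COX6B1, had 4 reads over the 6 libraries, and COX7B2, a paralog of COX7B, had 30. Neither could be tested. COX6A2, COX7A1, COX4I2 and COX8C, the other tissue forms, were not among the genes that the rule took from the count table. ATP5MGL, a paralog of ATP5MG, had 1 read in all.

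Complex V, the ATP synthase, had 6 of 19 tested members called, 4 higher and 2 lower, and its peripheral stalk split. The stalk holds the catalytic head still while the rotor turns. All 4 of its subunits had non-overlapping groups, 3 upward and 1 downward. The share without overlap was 42.3% of all genes and 61.3% of the genes between 65.6 and 378 CPM, and 4 genes are few. ATP5PF, subunit F6 (chromosome 21, 25716503 to 25735673, minus strand), had 187, 196 and 189 CPM in si_NC and 211, 210.3 and 224 CPM in si_GRB2. Its log2 fold change was 0.17 (SE 0.032, adjusted p = 0.000664, edgeR). ATP5PB, subunit b, was 0.12 higher (SE 0.025, adjusted p = 0.00202, edgeR), and ATP5PD, subunit d, had 0.088 (adjusted p = 0.0572, edgeR).

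ATP5PO, the subunit that ties the stalk to the head (chromosome 21, 33903453 to 33915814, minus strand), was lower. It had 67.4, 72.4 and 69.6 CPM in si_NC and 63.5, 60.6 and 61.3 CPM in si_GRB2. The log2 fold change was −0.18 (SE 0.04, adjusted p = 0.00287, edgeR). The ratio of ATP5PF to ATP5PO reads was 2.78, 2.71 and 2.72 in si_NC and 3.32, 3.47 and 3.65 in si_GRB2. An overlapping locus on the same strand (ENSG00000249209.2), with 257% as many reads as ATP5PO, had 173, 184 and 179 CPM in si_NC and 159, 159.5 and 161 CPM in si_GRB2. Its log2 fold change was −0.16 (SE 0.031, adjusted p = 0.00084, edgeR). The fall was therefore seen on both loci, whose reads may have been divided in counting.

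The c ring, the turning part in the membrane, is made of identical copies of 1 mature protein that 3 genes encode. ATP5MC2 had 118, 119 and 119 CPM in si_NC and 111, 103 and 102 CPM in si_GRB2, with no overlap. It fell by 0.17 on the log2 scale (SE 0.037, adjusted p = 0.00176, edgeR). ATP5MC1 had −0.048 (95% interval −0.12 to 0.02), and ATP5MC3 had 0.021 (95% interval −0.03 to 0.07). ATP5MC3 had the most reads of the 3 genes in every library, and their summed level was 565, 577 and 576 CPM in si_NC and 576, 553 and 552 CPM in si_GRB2, so the sums overlapped. ATP5MK, a small membrane subunit, had 110.4, 116 and 111 CPM in si_NC and 124, 119 and 124 CPM in si_GRB2. It was 0.12 higher (SE 0.033, adjusted p = 0.00934, edgeR), a call lost without si_NC replicate 1.

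In the F1 head, which makes ATP, 1 of 5 subunits was called. This was ATP5F1C, the central shaft, at 0.084 (SE 0.026, adjusted p = 0.0236, edgeR), and the call was lost when any si_NC library, or si_GRB2 replicate 3, was left out. The catalytic subunit ATP5F1B had 1714, 1711 and 1688 CPM in si_NC and 1738, 1724 and 1730.5 CPM in si_GRB2. Every si_GRB2 value was above every si_NC value, but the log2 fold change was 0.022 (SE 0.02, adjusted p = 0.449, edgeR). ATP5F1A had 0.068 (adjusted p = 0.0699, edgeR), ATP5F1D 0.025 and ATP5F1E −0.034. ATP5IF1, the inhibitor of the head, had −0.068 (adjusted p = 0.214, edgeR).

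**Figure D3:**
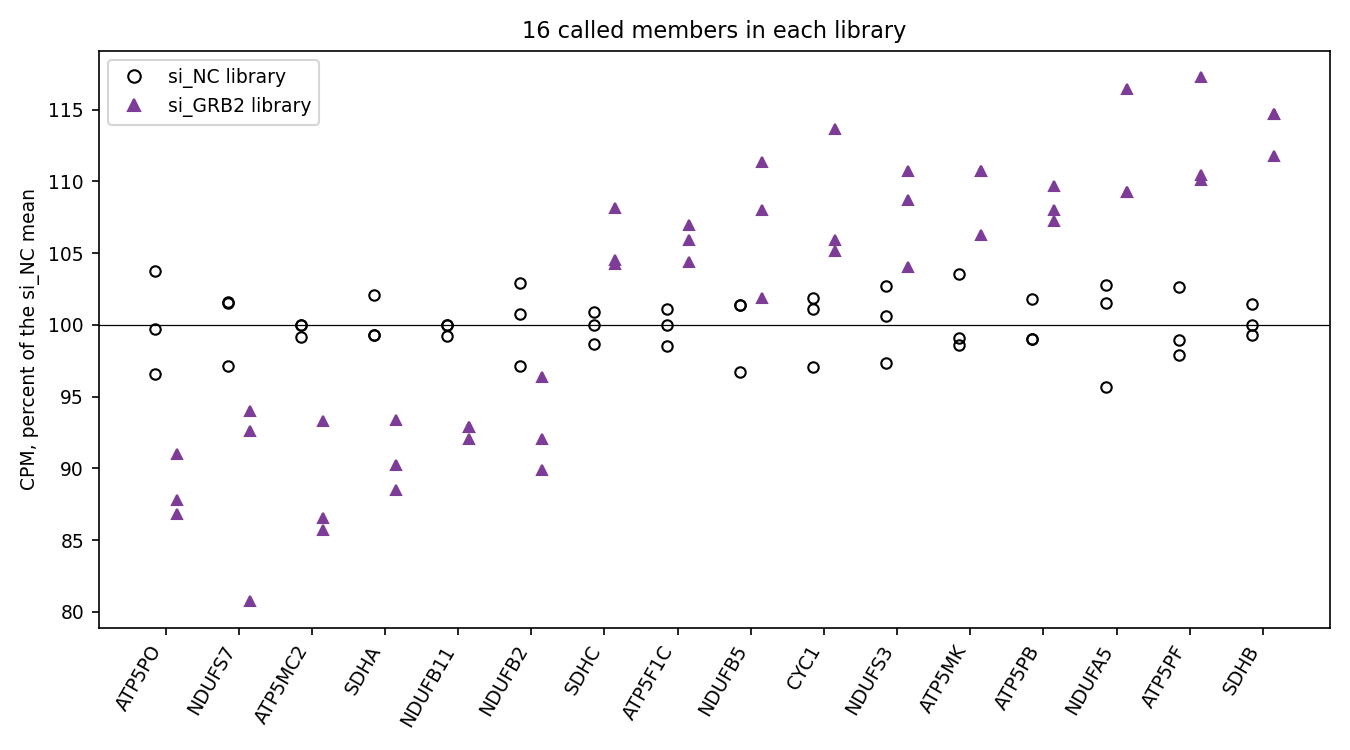
CPM of 16 of the 17 called members in each library, as percent of the si_NC mean (vertical axis), in order of their fold change. Circles are si_NC and triangles si_GRB2 libraries. The groups of each member shown do not overlap, and NDUFS7 shows the widest spread among si_GRB2 libraries.

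Levels between genes were compared per length, with the deposited FPKM (fragments per kilobase and per 1e6 fragments). Complex IV members had the highest median in si_NC, 116 FPKM, followed by 61.1 FPKM for complex V, 51.9 for complex III, 48.8 for complex II and 28.6 for complex I. The ranges overlapped widely. FPKM depends on the annotated length as well as on reads. NDUFB9, with 1909 CPM in si_NC and 16591 bases of annotated exon, had 92.4 FPKM in si_NC. NDUFA1, with 223 CPM in si_NC and 421 bases, had far fewer reads and a higher FPKM. A length joined over all annotated exons can exceed that of the mRNA, so the order of genes and complexes is uncertain. ATP5F1B stood highest at 612 ± 17 FPKM (SD, n = 3), next came NDUFA1 at 426 ± 15.1 FPKM, and NDUFA4L2 stood lowest at 0.123 FPKM. Within complex II, whose subunits are present in equal number in the protein, SDHC had 93.3 FPKM, SDHD 50.6, SDHB 47.1 and SDHA 26.4. Their annotated exon lengths were 1902, 2790, 2445 and 8703 bases in that order, and SDHA had the most reads of these genes. In si_GRB2 the medians by complex, from I to V, were 30, 53.6, 54.2, 115 and 61.5 FPKM.

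**Figure D4:**
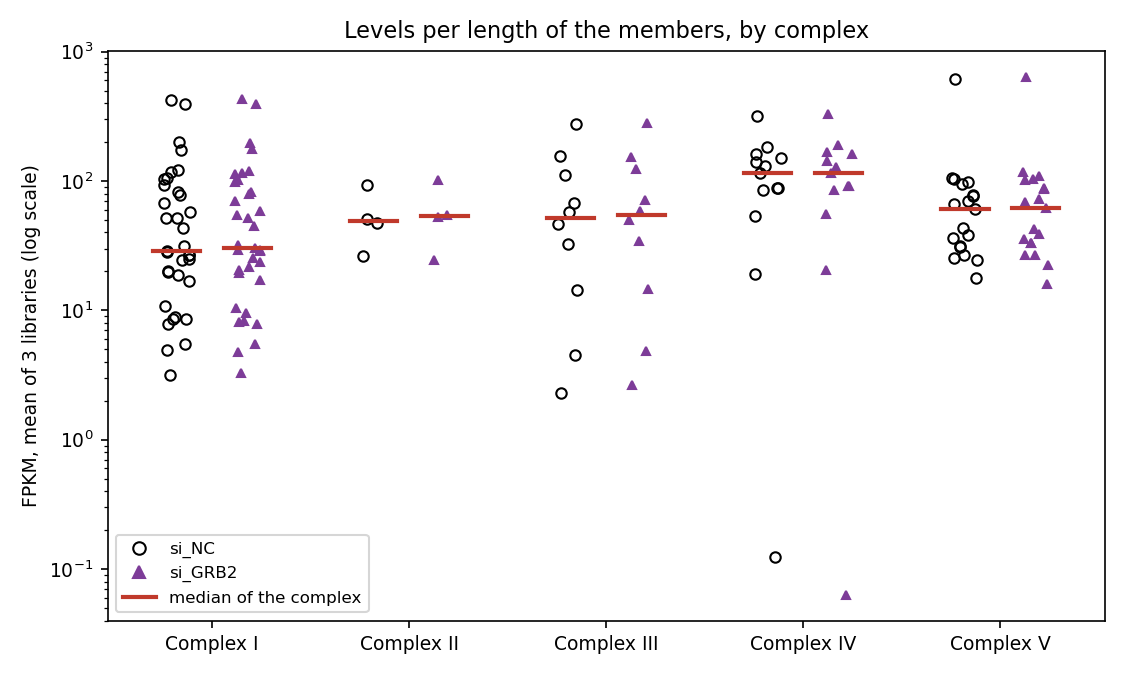
Mean FPKM over 3 libraries (vertical axis, log scale) of 81 tested members by complex, in si_NC (circles) and si_GRB2 (triangles), with the median of the plotted members of each complex as a red bar. Complex IV has the highest median, 116 FPKM in si_NC and 115 in si_GRB2, and NDUFA4L2 lies lowest.

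Some of these levels may depend on how overlapping genes were counted, which was not tested. For 10 members, another gene on the same strand and overlapping in span held at least 50% as many reads. For 8 of them that gene was no member. ATP5MGL, with 1 read in all, also overlaps such a gene but was left out of this count. NDUFA7, left out of the test with 57 reads over 6 libraries, overlaps a locus (ENSG00000167774.2) with 41.8 CPM in si_NC and 42.8 CPM in si_GRB2. NDUFB8, at 12.3 CPM in si_NC, overlaps a locus (ENSG00000255339.6) with 91.8 CPM. NDUFA11, ATP5MG, UQCR11 and NDUFA9 were of this kind too. The levels of these genes are therefore uncertain. None of these 6 overlapping loci was called (adjusted p from 0.145 to 0.768, edgeR), and the log2 ratios of summed CPM of gene and locus ran from −0.046 to 0.043. The readthrough genes NDUFC2-KCTD14 and ATP5MF-PTCD1, members by their symbols, share sequence with NDUFC2 and ATP5MF. The kit kept strand, but whether counting used it is not given in the sources used here. An opposite-strand gene with over 10% as many reads overlaps 20 members. The called ones among them were NDUFS3 (52.9%), NDUFB11 (48.5%), ATP5PF (13.5%), NDUFB2 (13%), ATP5PO (11.5%) and ATP5PB (10.5%). NDUFB2 also overlaps a same-strand gene with 29.8% as many reads.

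The subunits encoded in mitochondrial DNA were lower. Of these 13 genes, 12 were lower and 0 higher by edgeR, against 15.5% of all genes lower, with a median log2 fold change of −0.26. MT-ND6 was not called (−0.011, adjusted p = 0.915, edgeR). The groups did not overlap for 10 genes (76.9%, against 42.3% of all genes). Since all 13 are transcribed from the same mitochondrial DNA, they are not separate results. They took 7.7, 8.03 and 7.7% of reads in si_NC and 6.87, 6.62 and 6.8% in si_GRB2, while the nuclear members took 1.8% in each si_NC library and 1.91, 1.86 and 1.89% in si_GRB2. Read for read within a library, the ratio of mitochondrially encoded to nuclear subunits was 4.27, 4.45 and 4.29 in si_NC and 3.59, 3.56 and 3.59 in si_GRB2, a change of −17.4% between the means. The ratio was lower in each si_GRB2 library for complex I (−15.4%), complex III (−26.7%), complex IV (−16.8%) and complex V (−20.4%).

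CYCS, cytochrome c, the nuclear-encoded carrier between complexes III and IV, was lower too. It had 854, 882 and 831 CPM in si_NC and 648, 642 and 696 CPM in si_GRB2. The log2 fold change was −0.37 (SE 0.031, adjusted p = 2.09e-07, edgeR), larger in size than that of any called member. NDUFAB1, the acyl carrier protein of complex I, whose symbol the rule does not take, had 0.02 (adjusted p = 0.679, edgeR).

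Assembly factors, which build the complexes without staying in them, were called in 12 of 63 cases (19%), 3 higher and 9 lower, beside 30.6% of all genes, with a median log2 fold change of −0.016. Those of complex IV gave 7 of 26, in contrast to 0 of 13 among its subunits, a difference that was not tested. SCO2, which delivers copper to complex IV, had 39.5, 37.5 and 41.8 CPM in si_NC and 31.3, 32 and 28.9 CPM in si_GRB2, a log2 fold change of −0.37 (SE 0.053, adjusted p = 6.49e-05, edgeR). SURF1 (−0.24) and COX14 (−0.21) fell, and COX10 (0.18) and HIGD1A (0.16) rose. In complex III, TTC19 (−0.20) and BCS1L (−0.14) fell and UQCC1 (0.13) rose. SDHAF1 (−0.20), which helps to mature SDHB, and DMAC1 (−0.17), of complex I, fell. BCS1L and SDHAF1 lost their call with DESeq2 and with limma. BCS1L also lost it without si_NC replicate 2, si_NC replicate 3 or si_GRB2 replicate 2, and SDHAF1 with the length offset and without si_NC replicate 3 or si_GRB2 replicate 2. COX10 lost its call with limma and without si_NC replicate 2. COX14, TTC19 and DMAC1 lost theirs with limma, and SURF1 with limma at a pseudocount of 1. None of the 6 factors of complex V passed the edgeR test (2 at an unadjusted p under 0.05).

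Of the 12 tested regulators of mitochondrial biogenesis, 5 were called (41.7%, beside 30.6% of all genes). TFB2M, a factor that mitochondrial RNA polymerase needs to start transcription, had 35.5, 39.6 and 36.4 CPM in si_NC and 21, 21 and 22.6 CPM in si_GRB2. Its groups were far apart. The log2 fold change was −0.79 (SE 0.055, adjusted p = 2.16e-08, edgeR), a fall of more than 1.5-fold. Among factors whose motifs were searched in the promoters and their partners, YY1 fell by 0.25 on the log2 scale (SE 0.036, adjusted p = 6.5e-05, edgeR) and GABPB1 by 0.24, while GABPB2 rose by 0.35 from 8.4 ± 0.439 to 10.7 ± 1.05 CPM (SD, n = 3). GABPA (−0.018), NRF1 (−0.10), TFAM (−0.11), POLRMT (0.09), PPARGC1B (−0.0054), PPRC1 (0.035) and TFB1M (−0.007) did not pass, with adjusted p from 0.07 to 0.961 by edgeR. ESRRA rose by 0.12, a call lost with limma and without si_NC replicate 1, si_NC replicate 2, si_GRB2 replicate 1 or si_GRB2 replicate 2. GABPB2 lost its call with limma and without si_GRB2 replicate 2. GABPB1 lost it with limma. Whether these levels bear on the members was not tested.

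**Figure D5:**
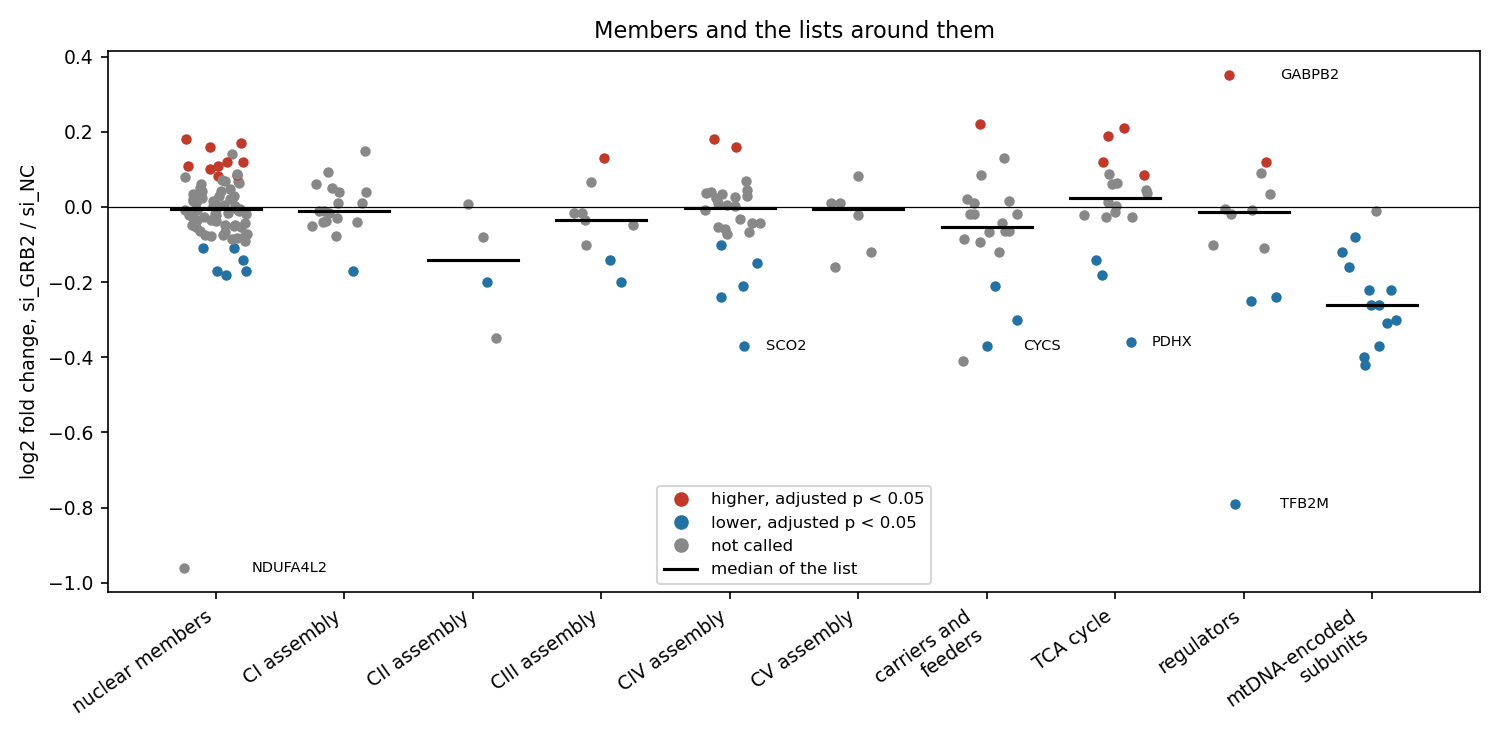
Log2 fold change of si_GRB2 against si_NC (vertical axis) for 81 of the 82 nuclear members tested and each gene of the surrounding lists (points, red and blue past an adjusted p under 0.05), with the median of each list as a black bar. The bar of the mitochondrially encoded subunits lies at −0.26 and that of the nuclear members close to 0, with TFB2M at −0.79 among the regulators.

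Gene length moved slightly with the comparison. The median log2 fold change rose from −0.033 in the shortest of 10 length classes of all genes to 0.035 in the longest. The median exon length was 2662 bases for the members and 4666 for all genes tested. With a length offset in edgeR, 20 members were called, 13 higher and 7 lower, and their median was 0.025, so the sign of a median this close to 0 has no weight. All 17 called members kept their direction in every alternative fit that was run.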

How the data were processed

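RNA-seq of 6 SK-BR-3 libraries was used, 3 si_NC and 3 si_GRB2, grouped by the sample descriptions. Per the labels and the study's methods, reads were trimmed with FASTX-Toolkit 0.0.13 and aligned to GRCh38 with HISAT2, and uniquely mapped reads were kept. The authors deposited whole counts per gene without normalization, and FPKM per gene. The counting tool, its strand setting and the annotation release are not given in the sources used here. Gene positions and lengths came from GENCODE 44 and promoters from RefSeq (GRCh38.p14).

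Counts were normalized by TMM, filtered with filterByExpr (15801 genes kept) and compared by edgeR 4.0.16 (R 4.3.3, glmQLFit and glmQLFTest), with Benjamini-Hochberg adjustment over all genes kept. A call is an adjusted p under 0.05. Intervals (95%) use the SE and the normal distribution. With 3 libraries a group, an exact permutation test of a single value cannot go below p = 0.1 (two-sided), so none is given. FPKM were tested with limma 3.58.1 on log2(FPKM + 1) and log2(FPKM + 0.1). Other alternatives were DESeq2 1.42.0, other factors and filters, a replicate block, a length offset, an adjusted p under 0.01 and leaving out each library. Depth was 24810378 to 28532480 reads a library, and standard errors show the precision it gives each gene. Figures were made with matplotlib 3.10.9 in Python 3.11.15.

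Values in every library are given for GRB2, for the 5 largest rises and falls among called members and for the largest change in each complex. Catalytic subunits, complex II, tissue isoforms and the F1 head are given in short, as are up to 5 called genes of each list with the largest change. The overlapping loci, NDUFA4, ATP5F1B and CYC1 were given in full after their values were seen. Members and lists were chosen with earlier results of these data known. The values of 1 member are not reported here, and it is left out of the plots that name genes.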

Additional observations from a re-analysis of the deposited data

How the results depend on the processing

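The 17 called members kept their direction in all 15 alternative fits. SDHB, ATP5PF, ATP5PB and NDUFA5 kept their call in each of them. DESeq2 called 20 members and a filter of at least 10 counts in every library 19. The replicate block gave 15 members, all among the 17, without SDHC and ATP5F1C. After each gene's group mean was subtracted, the deviations of same-numbered libraries had correlations of 0.2321, −0.09481 and 0.08041. The numbers were therefore not taken as pairs. Limma on log2(FPKM + 1) and on log2(FPKM + 0.1) each called 7 members, 7 higher and 0 lower, with 3 in complex I, 1 in complex II, 0 in complex III and 3 in complex V. The medians by complex under these settings were 0.025 in complex I, 0.085 and 0.086 in II, 0.084 and 0.085 in III, 0.039 in IV, and 0.063 and 0.064 in V, while the mitochondrially encoded subunits had 6 and 5 lower. Over all genes these settings had medians of 0.024 and 0.043. With the length offset the medians were 0.082 in complex II, 0.039 in IV and −0.2 for the mitochondrially encoded subunits. At an adjusted p under 0.01, 10 members were called, 6 higher, with 3 in complex I and 0 in complex III. DESeq2 called 2 in complex III. The causes of these shifts were not tested.

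Leaving out 1 library gave 11 to 17 called members, with 5 to 12 higher. The count fell to 11 without si_GRB2 replicate 3, and the higher calls to 5, 7 and 7 without si_NC replicate 1, si_NC replicate 3 and si_GRB2 replicate 3. Calls ranged from 3 to 6 in complex I (3 without si_GRB2 replicate 3), from 0 to 1 in complex III (0 without si_NC replicate 1 or si_GRB2 replicate 1) and from 0 to 1 in complex IV (NDUFA4, without si_GRB2 replicate 2). Medians ranged from −0.049 to −0.0072 in complex I, from −0.0032 to 0.058 in complex III and from −0.015 to 0.024 in complex V, with the lowest of each without si_GRB2 replicate 1. In complex V the median was also below 0, at −0.0077, without si_NC replicate 1. Over the genes named, 540 alternative values stayed on their side of the threshold and 103 called values fell short of it with their direction kept.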

Other observations

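The tricarboxylic acid cycle and the pyruvate dehydrogenase complex, which feed NADH and succinate to the chain, had 7 of 18 genes called, 4 higher and 3 lower. That share, 38.9%, stood beside 30.6% of all genes and 50.8% of the genes between 65.6 and 378 CPM. The list had a median level of 171 CPM and a median log2 fold change of 0.025. PDHX, which anchors a subunit of pyruvate dehydrogenase, had 64.7, 62.3 and 63.5 CPM in si_NC and 48.2, 50.8 and 49.9 CPM in si_GRB2. Its groups did not overlap, and the log2 fold change was −0.36 (SE 0.039, adjusted p = 4.07e-06, edgeR). PDHB, of the same complex, was −0.18. DLD, the dihydrolipoyl dehydrogenase shared by pyruvate and 2-oxoglutarate dehydrogenase, was 0.21 higher and SUCLA2, of succinyl-CoA synthetase, 0.19 higher.

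Among 20 electron carriers and feeders of ubiquinone, 4 were called (20%, beside 30.6% of all genes). Besides CYCS these were DHODH (−0.30) and GPD2 (−0.21), dehydrogenases that pass electrons straight to ubiquinone, and PDSS2 (0.22), which makes its side chain. The call of PDSS2 was lost with DESeq2, with limma and without si_NC replicate 1, si_GRB2 replicate 2 or si_GRB2 replicate 3. None of the 11 COQ genes listed, which make or carry ubiquinone, passed an adjusted p under 0.05 by edgeR. The calls of DHODH, GPD2, PDHB and SUCLA2 were lost with limma on log2 FPKM.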
